A study of Arabidopsis thaliana with 2 samples.

Results

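The 3 myo-inositol phosphate synthase genes of *Arabidopsis thaliana*, *MIPS1* (AT4G39800), *MIPS2* (AT2G22240) and *MIPS3* (AT5G10170), were examined for MBD9 occupancy. They were taken by locus identifier out of 27444 protein-coding genes, and were chosen by readout in that the summit upstream of *MIPS1* was known to stand at the top of the list of scores. Their summit counts and scores are therefore given as descriptions, with no test. MBD9 belongs to the methyl-CpG-binding domain family and associates with the SWR1 complex, which places the histone variant H2A.Z. Anti-FLAG ChIP-seq was performed on Col-0 seedlings (labelled as shoots for stage), 13 days after germination. The IP library came from a transgenic line that expresses MBD9-3xFLAG from the *MBD9* promoter in the *mbd9-3* mutant, and the control library from wild-type plants without the tag. There was 1 library in each group, so no value has a replicate check, and a single transgenic line stands for tagged MBD9. The list held 13993 summits in 10348 peaks. Each summit has a score, the -log10 of its q value against the control, with a median of 10.1 and a range from 2.0 to 197. Sequencing depth cannot be read from such a list, and the score orders its summits without measuring how much MBD9 is bound.

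MIPS enzymes convert glucose 6-phosphate to inositol 3-phosphate, the first and rate-limiting step of myo-inositol synthesis. Myo-inositol then feeds phosphatidylinositol, phytate and other inositol phosphates, the galactinol used for raffinose sugars, and, through oxidation, cell wall precursors. In *Arabidopsis*, loss of *MIPS1* causes light-dependent leaf lesions, and the light signalling factors FHY3 and FAR1 activate *MIPS1* by binding its promoter at the sequence CACGCGC.

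Each of the 3 genes had a single summit within 1 kb upstream of its transcription start site (TSS). The sequence around it is shown for each gene because these stretches hold the elements the genes do or do not share. All are written on the strand of the gene, which is the minus strand in each case, so that the gene follows at the right. Capitals mark the G-box CACGTG, the ABRE core ACGTGG (or CCACGT on the other strand) and the FHY3/FAR1 binding site CACGCGC. The *MIPS1* stretch covers 100 bp on each side of the summit (chr4:18472268-18472468, TAIR10.1). The *MIPS2* stretch runs from 100 bp above the summit to the last base before the TSS (chr2:9454301-9454433), and the *MIPS3* stretch again covers 100 bp on each side (chr5:3191093-3191293).
MIPS1: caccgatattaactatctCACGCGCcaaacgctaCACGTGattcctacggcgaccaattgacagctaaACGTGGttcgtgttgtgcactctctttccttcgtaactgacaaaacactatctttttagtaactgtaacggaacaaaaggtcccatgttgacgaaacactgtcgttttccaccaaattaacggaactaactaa
MIPS2: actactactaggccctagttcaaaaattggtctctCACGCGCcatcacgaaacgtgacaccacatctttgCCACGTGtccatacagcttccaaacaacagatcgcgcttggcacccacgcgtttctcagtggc
MIPS3: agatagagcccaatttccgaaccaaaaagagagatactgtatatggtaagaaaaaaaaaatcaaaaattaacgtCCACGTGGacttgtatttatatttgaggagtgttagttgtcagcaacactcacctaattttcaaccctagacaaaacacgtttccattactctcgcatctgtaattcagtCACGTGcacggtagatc

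The 3 summits differed widely in score and in distance to the gene. At *MIPS1* (chromosome 4, 18469255 to 18472048) the summit lay at position 18472368, -320 bp from the TSS, with a score of 160. At *MIPS2* (chromosome 2, 9451605 to 9454300) it lay at position 9454333, -33 bp from the TSS, with a score of 14.1. At *MIPS3* (chromosome 5, 3187277 to 3190321) it lay at position 3191193, -872 bp from the TSS, with a score of 2.85. The order was thus *MIPS1*, *MIPS2*, *MIPS3*, with differences of 146 and 11.2 units of -log10 q between neighbors, and with 1 library it cannot be said whether these exceed the spread between plants. No summit lay inside any of the 3 genes or within 500 bp past the transcription end site (TES). Over all protein-coding genes, 17.3% had an upstream summit, 13.6% had a summit in the gene, 7.76% had one past the TES and 30.1% had one in any of these windows. Exactly 1 upstream summit and none in the other windows, the arrangement of all 3 *MIPS* genes, was found at 2550 genes (9.29%). Nothing is read from the count of 3 against these shares, since the genes were picked with their summits known.

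**Figure D1:**
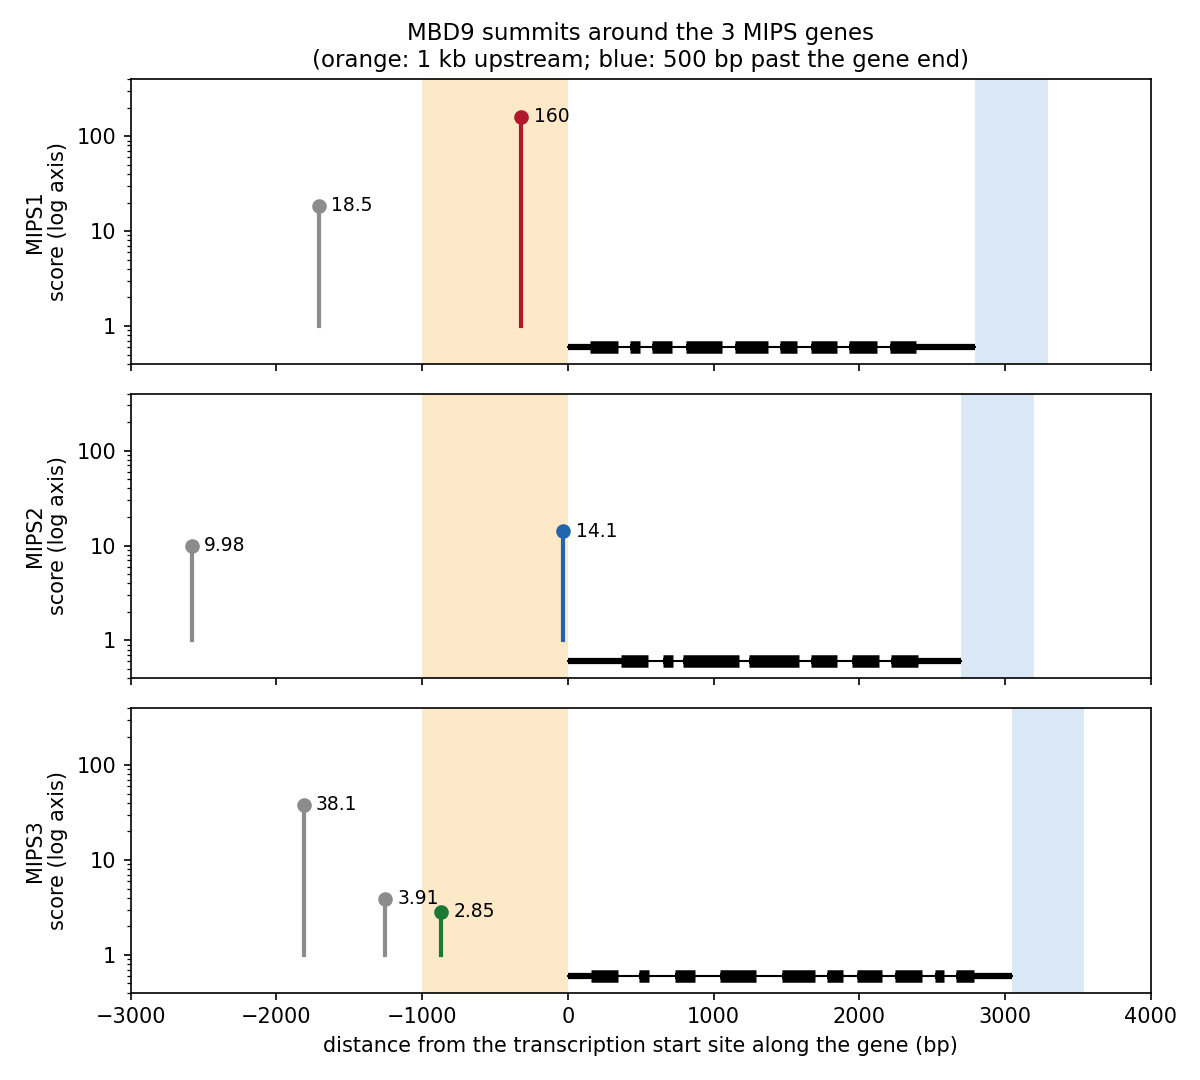
MBD9 summits around *MIPS1*, *MIPS2* and *MIPS3*, by distance from the TSS in bp along the gene (x axis) and score, -log10 q (y axis, log scale). Colored stems are summits in the windows that were counted, grey stems lie outside them, and black bars are exons (thicker where coding). The single upstream summits have scores of 160, 14.1 and 2.85, and the gene bodies and the 500 bp past their ends hold none.

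Among the 4752 protein-coding genes with an upstream summit, *MIPS1* ranked 1 by its highest score, which was 4 among all 13993 summits. The next gene, AT2G44660, had 142. *MIPS2* ranked 2158, so that 54.5% of these genes had a lower score, close to the middle of the distribution. *MIPS3* ranked 4619, with 2.78% of genes below it. The *MIPS3* summit lies just above the lowest score in the list, 2.0, which is set by the q value cutoff of 0.01, and a summit under that value would not be listed. The paralogues therefore cover nearly the whole range of upstream scores.

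**Figure D2:**
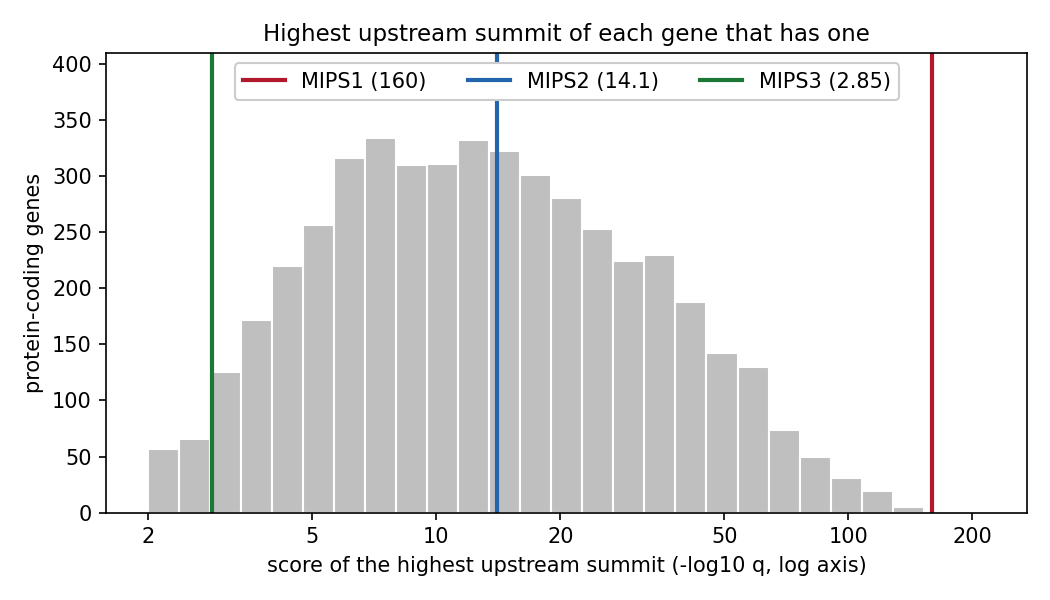
Number of protein-coding genes (y axis) by the score of their highest upstream summit, -log10 q (x axis, log scale), for the 4752 genes that have one. Vertical lines mark *MIPS1* at 160, above all other genes, *MIPS2* at 14.1 near the middle and *MIPS3* at 2.85 near the lower end.

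The annotation around the summits also differed. The *MIPS1* summit was intergenic, and the nearest gene on its far side was the lncRNA gene AT4G09915, which starts 1383 bp from the *MIPS1* TSS. That lncRNA gene held a summit of its own in an exon, -1711 bp from the *MIPS1* TSS, with a score of 18.5. The *MIPS2* summit lay in the coding exon of AT2G22241 (chromosome 2, 9454244 to 9454399, plus strand), an uncharacterized gene that overlaps the *MIPS2* start by 57 bp, so the summit cannot be assigned to one gene by position alone. *MIPS2* has 3 annotated transcripts, and from their starts the summit lay at -33, -63 and -239 bp. The distance from the summit to the start codon of the longest reading frame was -395 bp at *MIPS2*, compared with -475 bp at *MIPS1* and -1032 bp at *MIPS3*. The *MIPS2* and *MIPS1* summits were thus more alike in their distance to the start codon than to the TSS.

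*MIPS3* shares its upstream space of 2695 bp with the divergent gene *SULTR2;1* (AT5G10180), which encodes a sulfate transporter. This space held 3 summits in 3 separate peaks. The one counted for *MIPS3* had a score of 2.85. The next, just outside the 1 kb window at -1254 bp, had a score of 3.91 and lay -1442 bp from the *SULTR2;1* TSS. The last, at position 3192135, had a score of 38.1, the highest of the 3, and lay -1814 bp from *MIPS3* and -882 bp from *SULTR2;1*. Only this summit falls in the 1 kb upstream of *SULTR2;1*, while the weakest of the 3 falls in that of *MIPS3*. With a 2 kb window, the highest score upstream of *MIPS3* was 38.1, above 84.8% of genes that have a summit in that window. The stretch around the strongest of these summits (chr5:3192035-3192235, minus strand, TAIR10.1) is shown for comparison with the weak one, and none of the elements in capitals above occurs in it.
MIPS3 at -1814 bp: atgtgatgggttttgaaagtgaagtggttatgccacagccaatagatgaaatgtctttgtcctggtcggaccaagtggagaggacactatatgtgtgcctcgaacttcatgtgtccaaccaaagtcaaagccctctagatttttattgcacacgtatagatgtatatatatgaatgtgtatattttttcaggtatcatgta

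All 3 upstream summits had an ABRE core within 50 bp, and those of *MIPS2* and *MIPS3*, but not that of *MIPS1*, also had a G-box there. The G-box is bound by bZIP and bHLH factors, among them light and abscisic acid regulators, and the ABRE core overlaps with it in sequence. Within 25 bp, only *MIPS3* of the 3 genes still had either element. In each gene the matches within 50 bp lay on the side of the summit away from the gene. The first base of the ABRE core was 32 bp above the summit at *MIPS1* (-32). At *MIPS2* the element read CCACGTG, with the G-box starting at -29 from the summit. At *MIPS3* it was the palindrome CCACGTGG, with the G-box starting at -25. The G-box was present within 50 bp of 8.97% of all summits. For comparison, a window of equal size was placed upstream of every protein-coding gene at the TSS distance of the *MIPS1*, *MIPS2* or *MIPS3* summit, and 1.25%, 3.45% and 1.21% of these windows held the G-box. The ABRE core was present within 50 bp of 8.33% of all summits and of 10.8% of upstream summits, and in 1.96%, 4.26% and 1.93% of those windows. The 2 sequences overlap at *MIPS2* and *MIPS3* and are not separate findings there. A match describes the sequence and does not show that a factor is bound.

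The FHY3/FAR1 binding site separated *MIPS1* and *MIPS2* from *MIPS3*. CACGCGC occurred once within 1 kb upstream of *MIPS1*, at -82 from the summit, and once upstream of *MIPS2*, at -65 from the summit. It did not occur in the 1 kb upstream of *MIPS3*. Over all protein-coding genes, 696 (2.54%) had the sequence within 1 kb upstream. It was present within 100 bp of 4.05% of all summits and of 4.94% of summits upstream of protein-coding genes. In windows of the same size it was present in 0.525% of genes at the *MIPS1* distance and in 1.04% at the *MIPS2* distance. In both genes the site was followed by a G-box on the gene side, with 9 bases between them at *MIPS1* and 29 at *MIPS2*. A CACGCGC and a G-box whose first bases lie within 50 bp of each other were found upstream of 89 genes (0.324%) and within 100 bp of 90 summits (0.643%). The share was 1.02% among summits upstream of protein-coding genes. Those 90 summits, which include the ones at *MIPS1* and *MIPS2*, had a median score of 18.4, against 10.1 for the 13903 others. Each sequence taken by itself also went with a higher median. Within 100 bp it was 15.2 with a G-box and 9.52 without, and 15.3 with a CACGCGC and 9.96 without. The combination of the 2 sequences was picked out after the sequences had been seen.

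**Figure D3:**
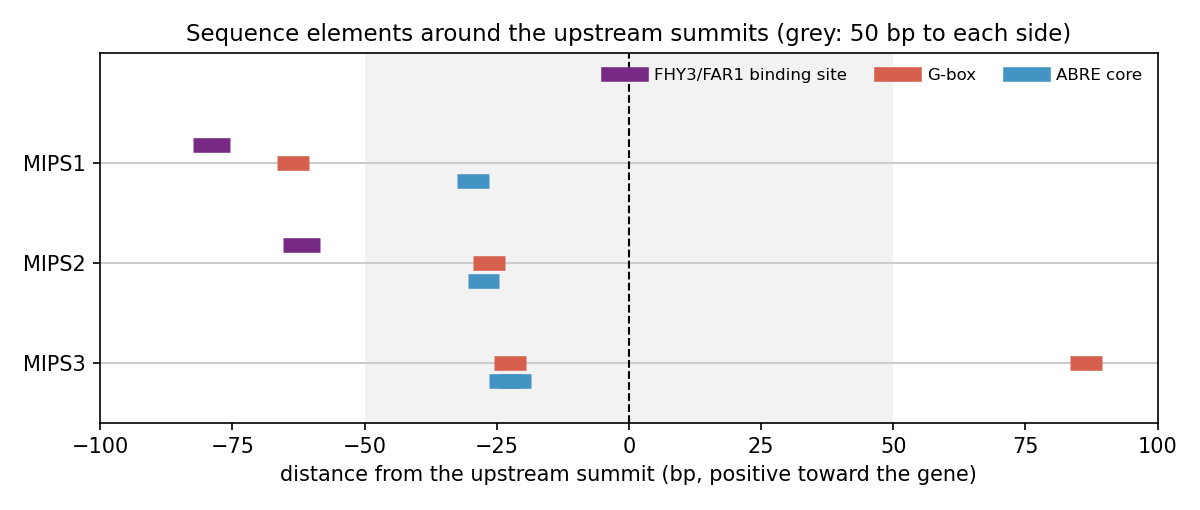
Matches to the FHY3/FAR1 binding site, the G-box and the ABRE core (colored bars) within 100 bp of the upstream summit of each *MIPS* gene. The x axis is the distance from the summit in bp, positive toward the gene, and the grey band covers 50 bp to each side. *MIPS1* and *MIPS2* have the FHY3/FAR1 site at -82 and -65, followed by a G-box, and *MIPS3* has only G-box and ABRE matches.

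The number of G-boxes set *MIPS1* apart. It had 6 within 1 kb upstream, whereas *MIPS2* had 2 and *MIPS3* had 2. Among 27444 protein-coding genes, 4055 (14.8%) had at least 1, 733 (2.67%) had at least 2 and 4 had at least 5, and *MIPS1* was the only gene with 6. This count was made after the sequences had been seen. Of the 6 in *MIPS1*, 3 lay close to the TSS, at -142, -81 and -65 bp, on the gene side of the summit. The others started at -848, -520 and -386 bp, and the nearest to the summit was that at -386. The 150 bp next to the TSS (chr4:18472049-18472198, minus strand, TAIR10.1) are shown with these G-boxes in capitals.
MIPS1 next to the TSS: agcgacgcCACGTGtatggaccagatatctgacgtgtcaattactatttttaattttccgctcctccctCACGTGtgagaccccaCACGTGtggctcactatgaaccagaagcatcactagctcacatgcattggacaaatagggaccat

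Across all protein-coding genes, an upstream summit was present at 14.2% of genes without a G-box in this window, at 35.2% of those with at least 1, at 51.0% of those with at least 2, at 61.9% of the 139 with at least 3 and at 72.7% of the 33 with at least 4. The median of the highest upstream score was 11.7 in genes without a G-box that had a summit, 15.7 with at least 1, 17.2 with at least 2, 20.6 with at least 3 and 21.9 with at least 4. *MIPS1* is itself a member of each group with G-boxes. *MIPS2* (14.1) and *MIPS3* (2.85), each with 2 G-boxes, were below the median for at least 2, and *MIPS1* was above each of these medians. The place of *MIPS1* was fixed in advance, as it had the highest upstream score of all protein-coding genes. These shares were computed after the G-box number of *MIPS1* had been noticed, and no test was made of them.

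Of the 20 short sequences searched, 4 were found within 50 bp of the *MIPS1* summit, 4 at *MIPS2* and 5 at *MIPS3*. Besides those above, *MIPS1* had AGATAG, present at 4.71% of all summits, and the CCAAT box, present at 20.7%. *MIPS2* had the CAMTA site ACGCGT, present at 2.12% of all summits. *MIPS3* had the TATA sequence TATAAA, present at 12.8%, and a run of 6 adenines, present at 23.7%. The G-box and the ABRE core contain the shorter ACGT, which was also counted and was present at 32.8% of all summits. GC content within 50 bp was 41.6% at *MIPS1*, 51.5% at *MIPS2* and 32.7% at *MIPS3*, with a median of 37.6% over all summits. The *MIPS2* summit was the richest in CG dinucleotides with 8, followed by *MIPS1* with 5 and *MIPS3* with 2, and the median over all summits was 3. These counts describe the sequence only. Despite its family name, MBD9 is predicted to lack binding to methylated DNA, as the authors of the data state. They also report less methylation at MBD9 peaks than at control peaks, in every cytosine context. Methylation at the *MIPS* summits was not examined here.

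The proteins themselves are nearly the same. *MIPS1* encodes 511 residues and the other genes 510 each. *MIPS1* and *MIPS2* were identical at 93.7% of aligned residues, *MIPS1* and *MIPS3* at 89.6% and *MIPS2* and *MIPS3* at 89.8%. Upstream, the longest run of bases shared by any pair of 1 kb windows was 13 bp, and the overall identity of these windows is not given. The longest run shared between coding sequences was 38 bp, between *MIPS1* and *MIPS2*. Since only uniquely mapping reads were kept, sequence uniqueness was checked. All words of 50 bp in the upstream windows, the genes and the 500 bp past them occurred once in the nuclear genome.

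*MIPS2* and *MIPS3* also resembled each other in their surroundings. Each overlaps at its 3' end with a convergent gene for a thioesterase superfamily protein, AT2G22230 by 19 bp and AT5G10160 by 36 bp. These neighbors encode proteins identical at 72.6% of 219 aligned residues. AT2G22230 had 1 upstream summit, with a score of 13.9, at a base that lies in the tRNA gene AT2G22220, whereas AT5G10160 had no summit in any window. *MIPS1* has no overlapping gene at its 3' end, and the nearest gene there, AT4G39795, lies 1756 bp away and had no summit.

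The genes most like each *MIPS* gene were found among the 2547 other protein-coding genes with exactly 1 upstream summit and none in the other windows, by the difference of the scores on the log2 scale. For *MIPS1* they were AT2G44660 (score 142, a glycosyltransferase), AT4G38840 (136, a SAUR-like auxin-responsive protein) and *NUDX25* (127, a nudix hydrolase). For *MIPS2* they were *MTHSC70-2* (14.1), *FAMT* (14.0) and *SDR5* (14.1), and for *MIPS3* AT4G14260 (2.85), *EXO70A1* (2.85) and *FTSH9* (2.85). The nearest gene to *MIPS1* differed from it by 0.17 on the log2 scale, while *MIPS2* and *MIPS3* each had genes of nearly the same score.

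Other genes were examined from a list of 33, made of genes assigned to inositol metabolism and the *MIPS1* regulators *FHY3* and *FAR1*. An upstream summit was present at 9 of them (27.3%), against 17.3% of all protein-coding genes, and 20 had no summit in any window. The median highest upstream score of those 9 was 17.0, compared with 12.6 for all genes with an upstream summit. The list was chosen with earlier results of these data known, and the count is small. Nothing is therefore read from these differences. None of these 9 reached the score of *MIPS1*, and all were above that of *MIPS3*. The first follows from *MIPS1* having the highest upstream score of all protein-coding genes. The second is little information, as only 2.78% of genes with an upstream summit lay below *MIPS3*. By role, an upstream summit was present at 0 of 3 genes of the myo-inositol monophosphatase family, a number too small to set against the share over all genes. *VTC4* encodes a phosphatase that releases free myo-inositol from the product of MIPS, whereas *IMPL2* is known as a histidinol-phosphate phosphatase of histidine synthesis. It was present at 2 of 4 *MIOX* genes, which encode myo-inositol oxygenases, with scores of 13.7 at *MIOX1* (-160 bp) and 32.3 at *MIOX2* (-988 bp). *MIOX2* also had 4 summits in the gene. Of the 7 galactinol synthase genes, 3 had one, *GolS2* with 47.5 at -453 bp, *GolS1* with 19.3 at -766 bp and *GolS3* with 10.7 at -63 bp. *GolS2* and *GolS3* had a G-box within 50 bp of that summit, as *MIPS2* and *MIPS3* did. The other 7 listed genes with an upstream summit had none within 50 bp of their highest one, nor did *MIPS1*. An ABRE core was present within 50 bp at *GolS2*, *GolS3* and *MIOX1*, as at all 3 *MIPS* genes, and at none of the remaining listed genes. Over all summits, 8.97% had a G-box and 8.33% an ABRE core within 50 bp. With so few genes, nothing is read from these counts.

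For phosphatidylinositol synthesis, *PIS2* had a score of 11.2 at -733 bp and *PIS1* had no summit. Among 10 kinase genes of the phytate and inositol pyrophosphate routes, *VIH1* had 17.0 at -71 bp and *ITPK1* 7.92 at -114 bp. Without an upstream summit, *MIK* had a summit of 13.7 past its TES and *ITPK2* one of 12.1 in the gene. The tonoplast transporter gene *INT1* had 33.8 at -114 bp and a summit of 28.5 past its TES, and the other *INT* genes had none. *ABCC5*, which encodes a phytate transporter, had a summit of 15.7 in the gene. Of the regulators of *MIPS1*, *FHY3* had a summit of 3.88 in the gene and none upstream, and *FAR1* had none in any window.

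**Figure D4:**
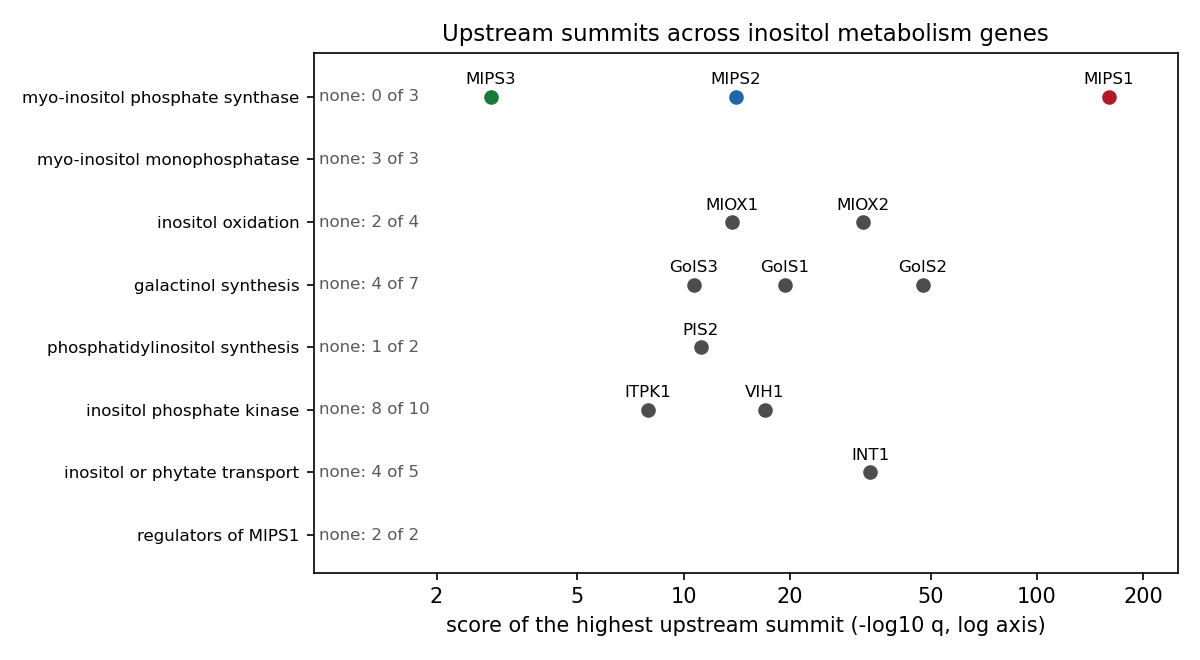
Score of the highest upstream summit, -log10 q (x axis, log scale), for the *MIPS* genes and the 33 other listed genes, by role (rows). The list holds genes assigned to inositol metabolism and the *MIPS1* regulators *FHY3* and *FAR1*. The text at the left gives how many genes in each role had no upstream summit. *MIPS1* (160) is above every listed gene, as it is above all protein-coding genes with an upstream summit, and the highest listed gene is *GolS2* (47.5).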

How the data were processed

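ChIP-seq with an anti-FLAG antibody (F1804) was done on MBD9-3xFLAG *mbd9-3* and wild-type Col-0 seedlings. The authors aligned reads to TAIR10 without organelles with Bowtie, kept unique alignments and removed duplicates with SAMtools. They called summits once with MACS2 2.1.1 (q value cutoff 0.01, extension size 200) against the wild-type FLAG library. The deposited score is -log10 of the q value. Peak widths and coverage were not used here, so depth is unknown.

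Positions were made 1-based. Gene models and sequence came from RefSeq TAIR10.1, and all summits lay within its chromosome lengths. The gene record gave the TSS and TES. Summits were counted within 1 kb upstream, in the gene and within 500 bp past it. Of 20 sequences, searched on both strands, those not spelled out in the report were the PBE-box CACATG, the W-box TTGACC, the site II element TGGGCC, the evening element AAATATCT, the I-box core GATAAG, the DRE core CCGAC, the GCC-box GCCGCC, the TGA site TGACGT, the telo box AAACCCTA and the GAGA element GAGAGA. Proteins were translated from the longest annotated coding sequence of each gene and aligned globally (BLOSUM62). The members, gene list, sequences searched and windows were chosen with earlier results of these data known. Named genes were the members, their neighbors within 2 kb, listed genes with an upstream summit and the 3 most similar genes per member. *SULTR2;1*, *VTC4*, *IMPL2*, *PIS1*, *MIK*, *ITPK2*, *ABCC5*, *FHY3*, *FAR1* and the genes of the closing section lie outside this rule and were named after their values had been seen. Summit placement and motif search were tested on simulated data and recovered every planted position. Alternatives covered score thresholds, windows, transcript starts, 1 summit per peak and motif flanks. Python 3.11.15, NumPy 2.4.6, Biopython 1.88 and Matplotlib 3.10.9 were used.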

Additional observations from a re-analysis of the deposited data

How the results depend on the processing

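Of 55 alternatives, 40 left the value unchanged or within 1.5 times. Some of these could not have changed it. *MIPS1* and *MIPS3* have 1 annotated transcript each, so the choice of transcript start made no difference there. The upstream summit of each *MIPS* gene was the only one in its peak, so taking 1 summit per peak made none either. The summit count of *MIPS2* was 1 in all 7 of its alternatives. Of these, 1 summit per peak and the most upstream transcript start could not have changed it. With 2 kb upstream the count was 2 for *MIPS1* and 3 for *MIPS3*. It was 0 for *MIPS3* with 500 bp upstream or with scores of at least 10. The highest upstream score of *MIPS3* went from 2.85 to 38.1 with 2 kb, and its percentile from 2.78 to 84.8, because the window then reaches the summit nearer *SULTR2;1*. With scores of at least 10, the share of protein-coding genes with a summit fell to 10.2% upstream, 6.79% in the gene and 3.90% past the TES. Motifs found were 1 for *MIPS1*, 1 for *MIPS2* and 4 for *MIPS3* with 25 bp flanks, where the G-box and the ABRE core were left at *MIPS3* alone, and 7 for *MIPS1*, 7 for *MIPS2* and 8 for *MIPS3* with 100 bp. Of the 33 listed genes, 7 had an upstream summit with 500 bp (12.4% of all protein-coding genes), 11 with 2 kb (23.7%) and 8 with scores of at least 10 (10.2%). No paired analysis was possible because the tagged and wild-type groups hold 1 library each. Weak summits are limited by unknown depth.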

Other observations

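The combination of a CACGCGC and a G-box near an upstream summit, seen at *MIPS1* and *MIPS2*, occurred at 58 protein-coding genes. By score, *MIPS1* ranked 1 among their summits and *MIPS2* ranked 37. The rank of *MIPS1* was fixed in advance, as it ranked 1 among all protein-coding genes with an upstream summit. The next after *MIPS1* were AT3G20640 (117 at -613 bp), *SHOT1* (105 at -930 bp), AT1G68670 (86.8 at -494 bp) and *MYBC1* (80.8 at -657 bp). These genes were listed after the combination had been noticed, and no test was made of it. The CACGCGC sequence was present within 50 bp of 9.52% of the 84 summits with a score over 100 and of 2.57% of all summits. A higher share at those 84 was not particular to CACGCGC. The G-box was present at 21.4% against 8.97%, and GGGACC at 16.7% against 5.19%. Other sequences went the other way, such as the W-box (3.57% against 7.22%) and the DRE core (7.14% against 9.99%). The *MIPS1* summit is not among those with CACGCGC within 50 bp, as its CACGCGC lies farther away, at -82.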
